A study of Caenorhabditis elegans with 6 samples.

Results

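The 6 vitellogenin genes of C. elegans, vit-1 to vit-6, were chosen by their names from a table of 20422 genes, and all 6 had a fold change and an adjusted p. Vitellogenins are the yolk proteins, large lipid-binding proteins that the adult hermaphrodite intestine makes and secretes into the body cavity. Growing oocytes take yolk up through the receptor RME-2, so worms without a germline have no oocytes to receive it. The insulin/IGF-1 receptor DAF-2 acts through kinases to hold back the transcription factor DAF-16, and yolk production is among the processes known to depend on this pathway.

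RNA was measured by sequencing in whole sterile adults of 2 genotypes, with 3 samples of 100 hand-picked worms for each. The controls were strain SS0415 with mes-1(bn84ts) on chromosome X, whose mutation leaves many worms without germ cells. The other group was strain SS1224, which carries the reduction-of-function allele daf-2(e1370) on chromosome III together with the same mes-1 allele. Embryos of both strains laid at 24°C were kept at 15°C from day 1, which stopped daf-2 larvae from becoming dauers, and adults were put back at 24°C on day 5 and collected on day 6. Each genotype is a single strain, and worms were picked for having no visible embryos.

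The deposited table holds 1 RPKM value for each genotype, a read density scaled to transcript length and, by the authors' tool, between samples. How that tool scaled between samples is not described in the sources used. The table also holds a DESeq2 comparison of the 3 samples against 3. Values for single samples are not analysed here, so it could not be seen whether the samples of the genotypes overlapped, and the number of reads per sample is unknown. Whether the samples of a genotype were grown separately is not stated in the labels. The p-values therefore cover the spread between these samples only, which may be technical. Below, controls are mes-1 worms, double mutants are daf-2; mes-1 worms, and every fold change is that of double mutants over controls. A gene was called higher or lower when its deposited adjusted p was under 0.05.

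In sterile adults the yolk genes had the largest counts of all genes, and 5 of the 6 fell in the double mutants. In the authors' deposited table the 6 largest mean normalized counts of all genes belonged to them, from 39015 for vit-1 to 241313 for vit-6. The genes vit-1, vit-2, vit-3, vit-4 and vit-5 were called lower by DESeq2, and vit-6 was not called. Of the 9820 genes with an adjusted p, 6.35% were called lower and 3.92% higher, and 10.3% in either direction. Of the yolk genes vit-3, vit-4 and vit-5 also had a log2 fold change of -1 or below, and 5.05% of tested genes were called lower with a change that large. The median log2 fold change was -1.06 over the 6 yolk genes and -0.03 over all tested genes. RNA of whole worms was measured, so a smaller part of all RNA coming from the intestine and less yolk RNA within intestinal cells cannot be told apart.

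**Figure D1:**
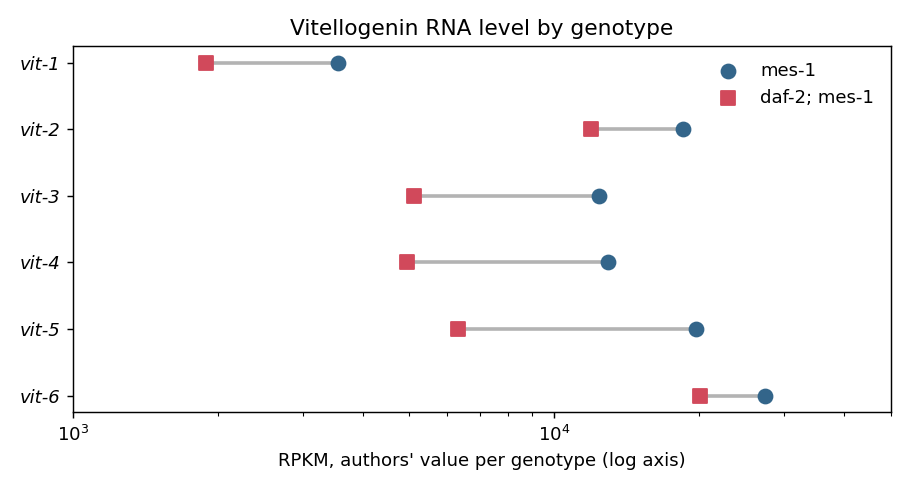
RPKM of each vitellogenin gene in the authors' deposited table, on a log axis, with 1 value per genotype (circles, controls; squares, double mutants). All 6 squares lie to the left of their circles, and the gap is widest for vit-5, with 19732 against 6303, and narrowest for vit-6, with 27440 against 20088.

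The genes vit-3, vit-4 and vit-5 code for nearly identical large yolk proteins, and they had the 3 largest falls. All are on the left part of chromosome X, where vit-4 and vit-3 lie in the same orientation with 3422 bases between them and vit-5 lies 150234 bases from vit-4. Positions are those of the authors' deposited table, whose genome build is not given in any source used. The gene vit-5 (WBGene00006929, C04F6.1; forward strand of chromosome X from 3403457 to 3408591) had an RPKM of 19732 in the controls and 6303 in the double mutants, per the authors' deposited table. It kept 31.9% of its level, the smallest share of the 6. Its deposited log2 fold change was -1.58, or 2.99-fold lower, with an adjusted p of 8.06e-08 (DESeq2).

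For vit-4 (WBGene00006928, F59D8.2; reverse strand of X from 3558826 to 3563961), the authors' deposited table gave an RPKM of 12920 in the controls and 4938 in the double mutants. It kept 38.2% of its level, with a deposited log2 fold change of -1.34 and an adjusted p of 1.2e-06 (DESeq2). The neighbouring vit-3 (WBGene00006927, F59D8.1; reverse strand of X from 3567384 to 3572536) had RPKM values of 12419 and 5107 in the authors' deposited table. It kept 41.1%, with a deposited log2 fold change of -1.24 and an adjusted p of 1.27e-05 (DESeq2). The levels of vit-3 and vit-4 were thus close to each other in both genotypes. How the authors' tools placed reads that match several of these copies is not stated, so the split of reads between vit-3, vit-4 and vit-5 is uncertain. Their sum does not depend on how shared reads were divided among them, only on whether such reads were kept. The summed RPKM of the 3 genes was 45070 in the controls and 16348 in the double mutants, or 36.3% of the control level.

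The genes vit-1 and vit-2 are each other's closest relatives and lie further along chromosome X. The authors' deposited table put vit-2 (WBGene00006926, C42D8.2; forward strand from 5101001 to 5106142) at an RPKM of 18534 in the controls and 11928 in the double mutants. It kept 64.4% of its level, and its call lay at the threshold, with a deposited log2 fold change of -0.62 and an adjusted p of 0.0493 (DESeq2). The call for vit-2 was lost at a threshold of 0.01. The gene vit-1 (WBGene00006925, K09F5.2; forward strand from 7727850 to 7733257) was the least abundant of the family, with RPKM values of 3562 and 1887 in the authors' deposited table. It kept 53.0%, with a deposited log2 fold change of -0.89 and an adjusted p of 0.00117 (DESeq2). Reads may be shared between this pair too, and their summed RPKM went from 22095 to 13814, or 62.5% of the control level.

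The gene vit-6 is the most distant member of the family, and its product is cut into a pair of smaller yolk proteins. It is also the only one on an autosome (WBGene00006930, K07H8.6; forward strand of chromosome IV from 8261131 to 8266449). In the authors' deposited table it had the highest RPKM of all genes in both genotypes, 27440 in the controls and 20088 in the double mutants. It was left at 73.2% of the control level, with a deposited log2 fold change of -0.47 and an adjusted p of 0.258 (DESeq2). Its unadjusted p, recovered as an upper bound, was at most 0.0443. The matching approximate 95% interval of the log2 fold change ran from -0.92 to -0.01, so a fall as large as that of vit-2 is not outside it.

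The largest standard error that each deposited adjusted p allows lay between 0.22 for vit-2 and 0.26 for vit-5 on the log2 scale. The deposited log2 fold changes ran from -1.58 for vit-5 to -0.47 for vit-6. Differences between members were not tested, since the genes were read in the same samples and no value per sample was used. On the log2 scale the RPKM ratios were -0.92 for vit-1, -0.64 for vit-2, -1.28 for vit-3, -1.39 for vit-4, -1.65 for vit-5 and -0.45 for vit-6. The largest gap to a deposited fold change was 0.067, and the order of the genes was the same by both measures. Both measures came from the same samples, so their closeness is not an independent check.

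**Figure D2:**
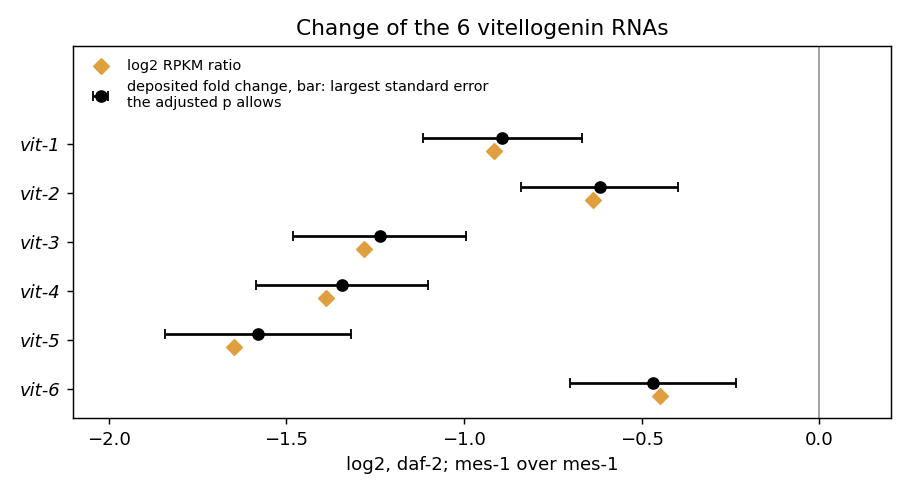
Deposited log2 fold change of each vitellogenin gene (black circles; the bar is the largest standard error that the deposited adjusted p allows) and the log2 ratio of the RPKM values (diamonds). The circles of vit-3, vit-4 and vit-5 lie between -1.24 and -1.58, and those of vit-1, vit-2 and vit-6 between -0.47 and -0.89.

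The make-up of yolk RNA differed between the genotypes. By RPKM, a scale per length, the order in the controls was vit-6, vit-5, vit-2, vit-4, vit-3 and vit-1. In the double mutants vit-2 stood above vit-5, and vit-3 above vit-4, although the last pair differed by only 5107 against 4938 RPKM. The 3 genes vit-3, vit-4 and vit-5 made up 47.6% of the family's summed RPKM in the controls and 32.5% in the double mutants, and 64.8% of the loss in summed RPKM was theirs. The share of vit-6 was 29.0% in the controls and 40.0% in the double mutants. The shares of vit-1 were close, at 3.76% and 3.75%. These shares have 1 value per genotype and no replicate check.

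Among all genes, vit-6, vit-5, vit-2, vit-4 and vit-3 had the 5 highest RPKM values in the controls, in that order. In the double mutants vit-6 and vit-2 stayed at ranks 1 and 2, while vit-5, vit-3 and vit-4 stood at ranks 11, 14 and 15. The gene vit-1 was at rank 25 in the controls and 58 in the double mutants. Counts per length gave vit-6 a smaller lead than RPKM did. Its mean normalized count per kilobase of exon was 47653, against 41596 for vit-2 and 35710 for vit-5. The order of the 6 genes within each genotype was the same with counts per kilobase as with RPKM.

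Yolk RNA made up a large part of all counts in both genotypes. The mean count over all samples and the fold change together give a mean normalized count for each genotype, if the deposited fold change is taken as the ratio of the genotype means. On that basis the 6 genes held 40.1% of all normalized counts in the controls and 26.5% in the double mutants. Over all genes the implied counts summed to 2912583 in the controls and 2313536 in the double mutants, and 92.6% of that difference was in the 6 yolk genes. All other genes together summed to 1745335 and 1700838, so their total in the double mutants was 97.5% of that in the controls. Counts normalized between samples hold the typical gene near no change, here a median log2 fold change of -0.03 over tested genes. The closeness of these totals, and with it the 92.6%, thus partly follows from the scaling. By summed RPKM, which weights short genes more, the yolk genes held 10.97% in the controls and 6.33% in the double mutants. Over all genes the RPKM summed to 862145 in the controls and 793602 in the double mutants. Without the yolk genes the RPKM sums were 767540 and 743352. A smaller part of the difference was thus in the yolk genes by RPKM than by implied counts. Neither kind of sum measures the total RNA of the worms.

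**Figure D3:**
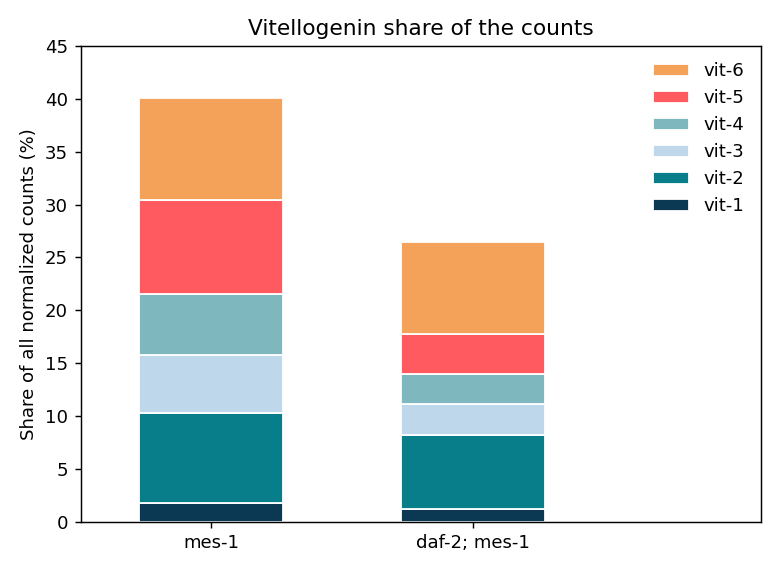
Share of all normalized counts held by each vitellogenin gene in each genotype, in percent, stacked from vit-1 at the bottom to vit-6 at the top. The stack reaches 40.1% in the controls and 26.5% in the double mutants, and the segment of vit-5 goes from 8.95% to 3.77% while that of vit-6 goes from 9.62% to 8.75%.

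Averaged over both genotypes, every other gene had a lower mean normalized count than the 6 yolk genes. Outside the family the 5 genes with the highest mean normalized counts were H39E23.3, anc-1, far-2, C17F4.7 and fat-2, from 15033 to 11911 in the authors' deposited table. Of these H39E23.3 rose, with a deposited log2 fold change of 3.02 and an adjusted p of 7.59e-17 (DESeq2). Its RPKM in the double mutants, 4460, was above the 1887 of vit-1 and near the 4938 of vit-4. The other 4 were not called, among them far-2, which encodes a fatty acid and retinol binding protein, and fat-2, which encodes a fatty acid desaturase. For these 4 genes the deposited log2 fold changes were between -0.37 and 0.20. Of 314 tested genes with a mean normalized count of at least 1000, the yolk genes included, 18.8% were called lower and 10.5% higher. Of 149 genes outside the family with an RPKM of at least 1000 in the controls, 34 were called lower and 8 higher, with a median log2 fold change of -0.25. These genes were chosen by their level in the controls alone, which favours falls. It leaves out H39E23.3, at an RPKM of 461 in the controls.

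**Figure D4:**
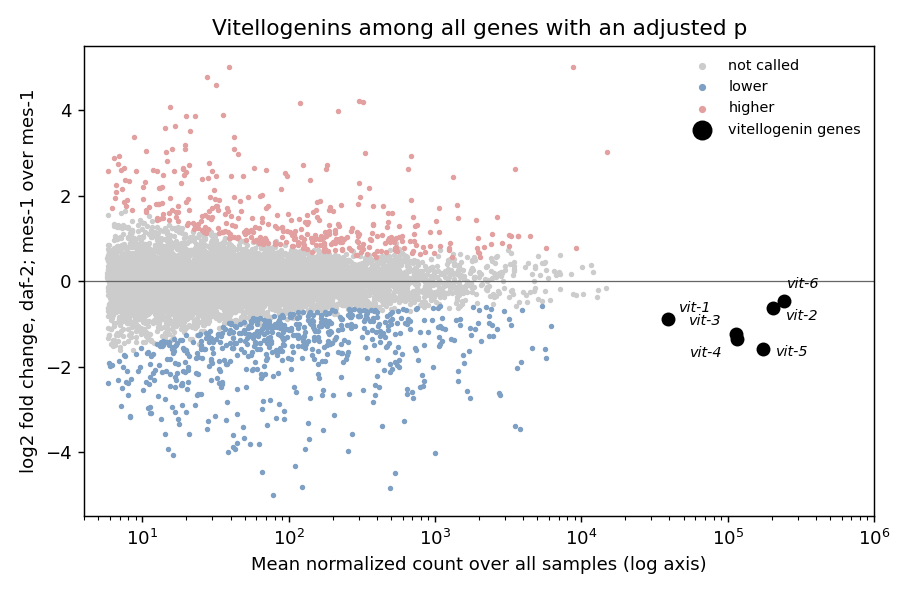
Deposited log2 fold change against mean normalized count (log axis) for the 9820 genes with an adjusted p, coloured by call, with the vitellogenin genes in black. The 6 black points lie to the right of every other gene, all below 0, between -0.47 and -1.58.

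The genes closest to the yolk genes in both RPKM values were abundant but were not called. Likeness was taken as the distance, in log2 RPKM over the 2 genotypes, from the family median of 13.92 in the controls and 12.47 in the double mutants. The nearest were dct-16 at a distance of 0.68, C17F4.7 at 0.76, far-2 at 0.95, Y119D3B.21 at 1.23 and col-181, a collagen gene, at 1.70. The RPKM of dct-16 was 9813 in the controls and 6328 in the double mutants in the authors' deposited table, with a log2 fold change of -0.59 and an adjusted p of 0.19 (DESeq2). With only 2 genotypes, this measure mostly reflects the level.

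Most genes next to a yolk gene were low in RNA. Of the 10 genes of the table that flank a member, 4 had no adjusted p, 5 were not called and spp-14 was called higher. The gene spp-14, which encodes a saposin-like protein, ends 1512 bases before vit-1 on the same strand. Its RPKM was 4079 in the controls and 6324 in the double mutants in the authors' deposited table, with a log2 fold change of 0.68 and an adjusted p of 0.0343 (DESeq2), while vit-1 fell. The gene rgs-7, beside vit-4, had RPKM values of 16.6 and 11.8, and unc-78, 58 bases from vit-5, had 15.9 and 21.9, per the authors' deposited table. Of 1458 tested genes on chromosome X, 8.78% were called lower and 4.05% higher. In the Ensembl annotation of WBcel235, 3 members overlap a gene on the opposite strand. These are C42D8.9 at vit-2, by 11 bases, and the non-coding genes T27A10.8 at vit-3 and F59D8.3 at vit-4, by 171 and 150 bases. The libraries do not mark strand, so reads there cannot be assigned to a strand. The overlaps are short beside the exon lengths of 4934, 4924 and 4936 bases of these yolk genes.

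Of the genes known in worms to control yolk gene transcription, 2 of 18 with an adjusted p fell and none rose. These are DESeq2 calls, and 2 genes in either direction had a bounded unadjusted p under 0.05. Of all 9820 tested genes, 6.35% were called lower and 10.3% in either direction, so 2 of 18 does not set this list apart. The kinase gene sgk-1, which acts downstream of TORC2 and promotes vit expression, had RPKM values of 29.2 in the controls and 10.1 in the double mutants in the authors' deposited table. Its deposited log2 fold change was -1.46, with an adjusted p of 6.06e-05 (DESeq2). The gene sma-4, which encodes a SMAD of the body-size TGF-beta pathway, had RPKM values of 28.7 and 14.0 in the authors' deposited table, a log2 fold change of -0.80 and an adjusted p of 0.0317 (DESeq2). At a threshold of 0.01, sgk-1 alone was called. The median log2 fold change of this list was -0.15.

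The other regulators were not called. For the homeodomain genes unc-62 and ceh-60, whose products activate the vit genes, the authors' deposited table gave log2 fold changes of -0.19 and -0.72. It gave 0.06 for elt-2, the main GATA factor of the intestine, 0.20 for daf-16 and -0.41 for the zinc finger gene pqm-1. For unc-62 the RPKM values, 43.2 in the controls and 28.7 in the double mutants, differed more than its deposited fold change did. The gene mab-3, which represses vit genes in males, had no adjusted p, and its RPKM was 1.09 and 0.304. For daf-2 itself the deposited log2 fold change was 0.35. The e1370 allele is a missense mutation, so its RNA level does not check the labels.

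Genes for yolk uptake and lipoprotein assembly were not called in either direction. Of 14 such genes, 13 had an adjusted p, and DESeq2 called none of them, while 2 had a bounded unadjusted p under 0.05. Their median log2 fold change was 0.00. Of all 9820 tested genes 10.3% were called in either direction, so the lack of a call among 13 does not set this list apart. Among these 13 the lowest value was -0.54, for dsc-4, which encodes the microsomal triglyceride transfer protein that loads lipid onto lipoproteins. Its adjusted p was 0.119 (DESeq2) in the authors' deposited table, with RPKM values of 105.9 and 72.1. The recycling endosome gene rme-1 was next, at -0.49 with an adjusted p of 0.143 (DESeq2). The yolk receptor gene rme-2 had no adjusted p. In the authors' deposited table its RPKM was 6.596 in the controls and 0.975 in the double mutants. Its deposited log2 fold change was -0.56, far nearer 0 than the log2 RPKM ratio of -2.76. Whether that RPKM gap rests on 1 sample could not be seen, as no value per sample was used.

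Genes for other abundant gut products also included many falls. Of 13 genes for aspartic and cysteine proteases, most of them gut or lysosomal enzymes, 8 fell, none rose and 5 were not called by DESeq2, with a median log2 fold change of -0.90. At a bounded unadjusted p under 0.05 there were 9. Of all 9820 tested genes 6.35% were called lower. The share was 18.8% of the 314 with a mean normalized count of at least 1000, a level that most of the 13 proteases reached. The aspartic protease genes asp-1, asp-6, asp-5 and asp-3 had deposited log2 fold changes of -1.88, -1.56, -1.12 and -1.05. The cathepsin B genes cpr-5 and cpr-4 had -2.82 and -2.74, the cathepsin Z gene cpz-1 had -0.90 and the cathepsin L gene cpl-1 had -0.69. The summed RPKM of the 13 genes was 17741 in the controls and 9942 in the double mutants.

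Of 14 markers of the intestine, where yolk is made, 7 were called lower and none higher by DESeq2, and 9 had a bounded unadjusted p under 0.05. Among all 9820 tested genes, 6.35% were called lower and 3.92% higher. The median log2 fold change of the 14 markers was -0.80, and their summed RPKM was 1415 in the controls and 788 in the double mutants. None was at 0. The called genes were the transporter gene pept-1 (log2 fold change -3.93), the acid phosphatase gene pho-1 (-3.67), the intermediate filament genes ifb-2 (-3.49) and ifc-2 (-1.51), the microvillar actin gene act-5 (-1.53), the proton pump gene vha-6 (-1.07) and the ezrin gene erm-1 (-0.80), per the authors' deposited table. Of all 14, 11 had negative log2 fold changes. The 7 markers that were not called were elt-7 at -0.79, gtl-1 at -0.66, spl-1 at -0.56, eps-8 at -0.20, the GATA factor gene elt-2 at 0.06, asah-1 at 0.25 and the gut esterase gene ges-1 at 0.37. The part of these changes in the fall of the yolk genes was not tested.

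The RPKM of 11 genes listed as markers of germ cells and oocytes summed to 3454 in the controls and 1825 in the double mutants. Most of both sums came from the eggshell genes perm-2 and perm-4. By RPKM, perm-2 stood at 2008 and 1134 and perm-4 at 1392 and 674, while the other 9 lay between 3.06 and 15.3 in the controls. Whether perm-2 and perm-4 RNA came from germ cells in these sterile worms was not tested, so their falls are not read as germline changes. Without these genes, a choice made after the values were seen, the other 9 markers summed to 54.2 in the controls and 17.5 in the double mutants, with a lower RPKM in the double mutants for all 9. None of the 9 was at 0 in either genotype. The RPKM gaps were small for glh-1, with 4.06 against 3.68, and for pie-1, with 3.29 against 3.15. By deposited log2 fold change all but glh-1, at 0.14, were negative, and pie-1 was at -0.05. DESeq2 called 0 of the 9, 0 had a bounded unadjusted p under 0.05, and 5 had no adjusted p, among them rme-2 and cbd-1. Over all genes, 21 of the 8680 with a mean normalized count of at least 10 had no adjusted p. The means of cbd-1 and rme-2 were 101.8 and 28.7, while the smallest mean with an adjusted p was 5.75. Why they lack an adjusted p is not stated. Without values per sample, it could not be seen whether the RPKM gaps of such genes rest on 1 sample. The genes perm-2 and perm-4 fell, with deposited log2 fold changes of -0.81 and -1.02 and adjusted p-values of 0.00115 and 2.97e-04 (DESeq2). The part of these differences in the yolk gene result was not tested.

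In other tissues few markers were called, and those were higher in the double mutants. By DESeq2 these were the SOX factor gene egl-13 among 6 somatic gonad markers, at 0.99, the myosin gene myo-3 among 4 muscle markers, at 0.93, and the synaptobrevin gene snb-1 among 4 neuron markers, at 0.64, as log2 fold changes of the authors' deposited table. None of these 3 lists had a called fall. Of all 9820 tested genes 6.35% were called lower and 3.92% higher, so lists this short can lack a called fall without standing apart. The median log2 fold changes of the 3 lists were -0.03, 0.25 and 0.18. Of 3 hypodermis markers only lin-26 had an adjusted p and was not called. Both others, dpy-7 and rol-6, had almost no RNA, with RPKM of 0 in the controls and 0.264 and 0.0878 in the double mutants.

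**Figure D5:**
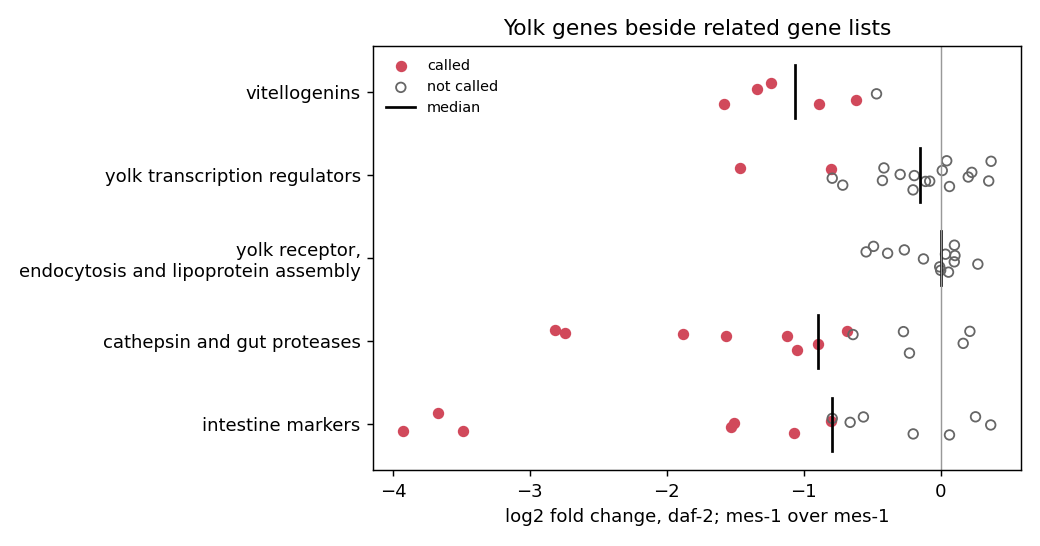
Deposited log2 fold changes of the yolk genes, of 3 related lists and of intestine markers (filled, called; open, not called; black line, median; points are spread vertically for view only). The medians are -1.06 for the yolk genes, -0.15 for regulators, 0.00 for uptake and assembly, -0.90 for proteases and -0.80 for intestine markers.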

How the data were processed

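Per the labels' protocols, ribosomal RNA was removed from Trizol extracts (kit designed for human, mouse and rat), and the library kit does not mark strand. The submitters' processing notes list TopHat2 and the authors' DESeq2, and the file headers Cuffdiff2, all without versions. The mean signal (normalized count), log2 fold change and Benjamini-Hochberg adjusted p-value are the authors' DESeq2 output per the file headers. The deposited fold changes end at an absolute value of 5 and the p-values at 1e-20. RPKM, 1 value per genotype, is the authors' Cuffdiff2 output per the file headers. The plan named a count test of the samples, or the deposited calls if only the authors' comparison was found, which was the case.

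Unadjusted p-values were bounded by inverting the adjustment (checked on simulated data), and the largest standard error is the size of the fold change over the normal quantile of that bound. The authors' table has an adjusted p for 9820 genes. Lists were matched by gene ID. Exon lengths came from Ensembl 115 for 97.4% of genes; only 1.71% of gene starts equal those of WBcel235, so no WBcel235 coordinate is printed. Members and lists were chosen with earlier results of these data known. Named were all members, every called list gene (or the 2 with the largest change), rme-2, and the 5 most abundant and 5 most alike genes; other regulators and markers were named after their values were seen. Work used Python 3.11.15, pandas 2.3.3 and scipy 1.17.1.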

Additional observations from a re-analysis of the deposited data

How the results depend on the processing

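At an adjusted p under 0.01 the yolk genes called lower numbered 4, at 0.1 there were 5, and 5 after readjusting over 8659 genes with a mean of at least 10. Requiring a change of at least 1 on the log2 scale as well left 3, by construction. RPKM ratios with no pseudocount or 1 or 5, centred on the median gene (-0.04) or on the sum of all other genes (-0.05), kept every direction and stayed within the standard error of the deposited value. With RPKM values this high and centring shifts this small, no direction could have changed, by construction. Relative to ribosomal protein genes, whose median log2 RPKM ratio was -0.28, vit-1, vit-2 and vit-6 stood at -0.64, -0.36 and -0.17. The yolk share of RPKM, 10.97% in controls and 6.33% in double mutants, was 35.1% and 22.6% once weighted by exon length, and 40.1% and 26.5% of implied counts, by construction. At 0.01, 1 yolk regulator was called lower. The share of implied counts, the order by counts and the list thresholds were added after seeing the data. No paired analysis was possible because the table used here holds no values per sample. For the same reason no replicate could be left out, and the depth of each sample is unknown.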
